A study of Mus musculus with 12 samples.

Results

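Solute carriers are the membrane proteins that move amino acids, sugars, metals, nucleosides, vitamins and ions across the cell surface and the membranes of organelles. The 112 described here were those whose mouse symbol has the form Slc, a family number, a letter and a member number, and whose mean count over 12 libraries of peritoneal macrophages reached 200. They were 112 of 364 genes with such a symbol and of 24558 genes in the table. Another 241 lay under the threshold, and 10 above it (the glucose carrier Slc2a1, the cystine carrier Slc7a11 and the iron carrier Slc11a2 among them) had been left out by name, as had 1 gene under it. The members were chosen by their mean count over all libraries, the only measured value used as a threshold. The choice, with the genes left out by name, was made with earlier results of these data known, so it was not blind to them. The 2 members nearest the threshold were Slc6a12 with a mean of 207 counts and Slc9a4 with 219, and the 2 genes next below it were Slc7a6 with 194.2 and Slc30a6 with 193.8. All 112 members passed the filter on low counts and were tested.

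The cells were macrophages of the peritoneal cavity from female mice on a high fat diet (HFD) or on chow, and RNA was sequenced after 24 h or 0 h of lipopolysaccharide (LPS), the bacterial outer membrane component sensed by Toll-like receptor 4. The 4 groups were HFD 24 h, chow 24 h, HFD 0 h and chow 0 h, with 3 libraries each. The labels give no strain, age or length of feeding and name no genetic change. They do not say whether the cells met LPS in culture or in the animal. Nor do they say that the 3 libraries of a group are different animals, so a p-value here reflects variation among libraries that may be technical. A group held 24 h without LPS is not among the samples, and the effects of LPS and of elapsed time cannot be told apart. The series title names the pentose phosphate pathway and inflammatory responses under hypercholesterolemia.

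Solute carriers work by alternating access, opening a binding site first to one side of the membrane and then to the other, and many draw on a gradient of sodium or protons or exchange one substrate for another. In macrophages they are known for feeding activated cells with glucose, arginine and glutamine, for moving iron, zinc and copper between the cell, its phagosomes and a microbe, for recycling haem from engulfed red cells, and for emptying lysosomes of digested material. The Slc25 family lies mainly in the inner mitochondrial membrane, Slc35 in the endoplasmic reticulum and Golgi, and Slc30 and Slc39 carry zinc out of and into the cytosol. Members were grouped into 10 substrate classes from such textbook roles, the largest being the mitochondrial Slc25 carriers with 22 members, amino acids with 20, and zinc with copper and protons with inorganic ions, 16 each.

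Library totals lay between 2360209 counts in HFD 0 h replicate 3 and 20688063 in HFD 24 h replicate 3, and the members together held 0.995% to 1.17% of them. Levels below are in CPM, counts relative to the library total after TMM scaling. A lane tag in the labels marked all 3 chow 24 h libraries and, of the rest, HFD 24 h replicate 1. Within chow, lane and time of LPS therefore cannot be told apart. The tag is also uneven between the diets at 24 h, so lane and diet are partly mixed there and in the interaction. The 8 macrophage markers summed to 10190 to 12720 CPM in HFD 24 h, 14190 to 15760 in HFD 0 h, 10090 to 11360 in chow 24 h and 14380 to 15690 in chow 0 h, and none was at 0. They moved in both directions, since Lyz2 fell (log2 fold change -1.03 in HFD and -1.14 in chow) while Adgre1 (1.57 and 0.84), Cd14 (2.22 and 2.17) and Fcgr1 (2.23 and 2.27) rose and the other 4 did not pass. The 5 markers of large resident peritoneal macrophages summed to 15.5 to 23.4 CPM in HFD 24 h, 20.7 to 40.1 in HFD 0 h, 20.1 to 27.7 in chow 24 h and 25.8 to 36.7 in chow 0 h. Of these Vsig4 fell (-2.09 and -2.39), Timd4 rose (1.997 and 2.04), and Gata6, Icam2 and Selp did not pass. Gata6 held 4.25 to 6.66 CPM in HFD 24 h and 8.74 to 12.7 in HFD 0 h, without overlap. In chow its values overlapped, with 5.96 to 16.95 CPM at 24 h and 8.23 to 17.7 at 0 h. The summed 9 mesothelial and stromal markers ran from 979 to 1087 CPM in HFD 24 h, 691 to 1383 in HFD 0 h, 1019 to 3013 in chow 24 h and 768 to 2421 in chow 0 h, highest in the replicate 1 libraries of chow. Most of this was Col1a1, Col1a2 and Col3a1, while Msln, Upk3b, Krt19 and Krt18 each held at most 4.05 CPM in any library. Upk3b fell (-2.87 in HFD and -1.90 in chow), and no other tested marker of this list passed. The 5 neutrophil markers summed to 20.5 to 32.0 CPM in HFD 24 h, 11.4 to 13.5 in HFD 0 h, 25.2 to 51.6 in chow 24 h and 8.32 to 9.81 in chow 0 h, nearly all of it S100a8, with the other 4 at or near 0. The 5 B cell markers summed to at most 20.1 CPM and the T and NK cell markers to at most 3.74. The part of these other cells in the results below was not tested, and in RNA from bulk cells fewer cells of a type and less RNA per cell cannot be told apart.

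Per kb of transcript, the member with the highest level over all libraries was Slc15a3, which carries histidine and small peptides out of lysosomes, with 494 CPM per kb. It was followed by Slc3a2, the heavy chain that brings several amino acid exchangers to the cell surface (233 CPM per kb), Slc48a1, which releases haem from lysosomes (184), the taurine importer Slc6a6 (175) and the mitochondrial phosphate carrier Slc25a3 (167). The libraries of Slc15a3 did not overlap with those of Slc3a2 on this scale, while those of Slc48a1, Slc6a6 and Slc25a3 overlapped. Over the 110 members with a transcript length the range was 2.73 to 494 CPM per kb, with a median of 15.3.

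After 24 h of LPS some solute carriers rose and others fell. In HFD 35 of 112 members changed, 17 rising and 18 falling (edgeR's quasi-likelihood test, adjusted p under 0.05 by Benjamini-Hochberg over all 12638 genes tested). The background was 24.6% of all genes, 12.7% higher and 11.9% lower, and 31.9% of the 7035 genes with a mean of at least 200 counts. In chow 44 of 112 changed, 21 rising and 23 falling, against 26.5% of all genes (13.7% higher and 12.9% lower) and 34.2% of those with a mean of at least 200 counts. The members' share of 31.2% in HFD was thus close to that of genes with like counts, and their share of 39.3% in chow lay above it, a difference that was not tested. The mean count of 91 members reached 200 in the libraries of each time, and of these 11 rose and 18 fell in HFD and 16 rose and 23 fell in chow. The other 21 reached it at 24 h and not at 0 h, so a rise among them is partly built into their choice. None of the 21 fell, 6 rose in HFD and 5 in chow, and Slc25a37, Slc6a12, Slc25a22, Slc39a14 and Slc16a1 rose in both. Library totals were also higher in every HFD 24 h library than in any HFD 0 h library. The median log2 fold change of the members was 0.00 in HFD and -0.05 in chow, beside a median of 0.00 over all genes in both. With upper-quartile scaling the split became 14 rising and 22 falling in HFD and 16 and 25 in chow. All 24 h libraries lay above all 0 h libraries in HFD for 26 members and below them for 29, beside 2302 and 2179 of the 12638 genes. In chow the counts were 27 and 29 members, beside 2847 and 2900 genes. Groups without overlap were thus frequent among all genes.

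Across the diets, 16 members rose in both (14.3%, beside 10.5% of all genes) and 16 fell in both (14.3%, beside 9.51%). None moved in opposite directions, and 65 passed in neither (58.0%, beside 68.8% of all genes). Shares among genes with like counts were not taken for these patterns, and the differences were not tested. By the test, 3 members passed in HFD and not in chow, 1 rising (0.893%, beside 2.2% of all genes) and 2 falling (1.79%, beside 2.44%). In chow and not in HFD 12 passed, 5 rising (4.46%, beside 3.17%) and 7 falling (6.25%, beside 3.36%). The test of the difference between the diets, given further down, called none of them. Leaving out each library in turn left 28 to 37 calls in HFD and 29 to 48 in chow, the fewest in chow (29) without chow 0 h replicate 2 and without chow 24 h replicate 1. With the lane tag as a covariate, which takes the lane effect from HFD 24 h replicate 1 alone, 17 members passed in chow, and without both chow replicate 1 libraries 24 did. In HFD 25 of the 35 calls and in chow 26 of the 44 calls held whichever single library was left out.

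**Figure D1:**
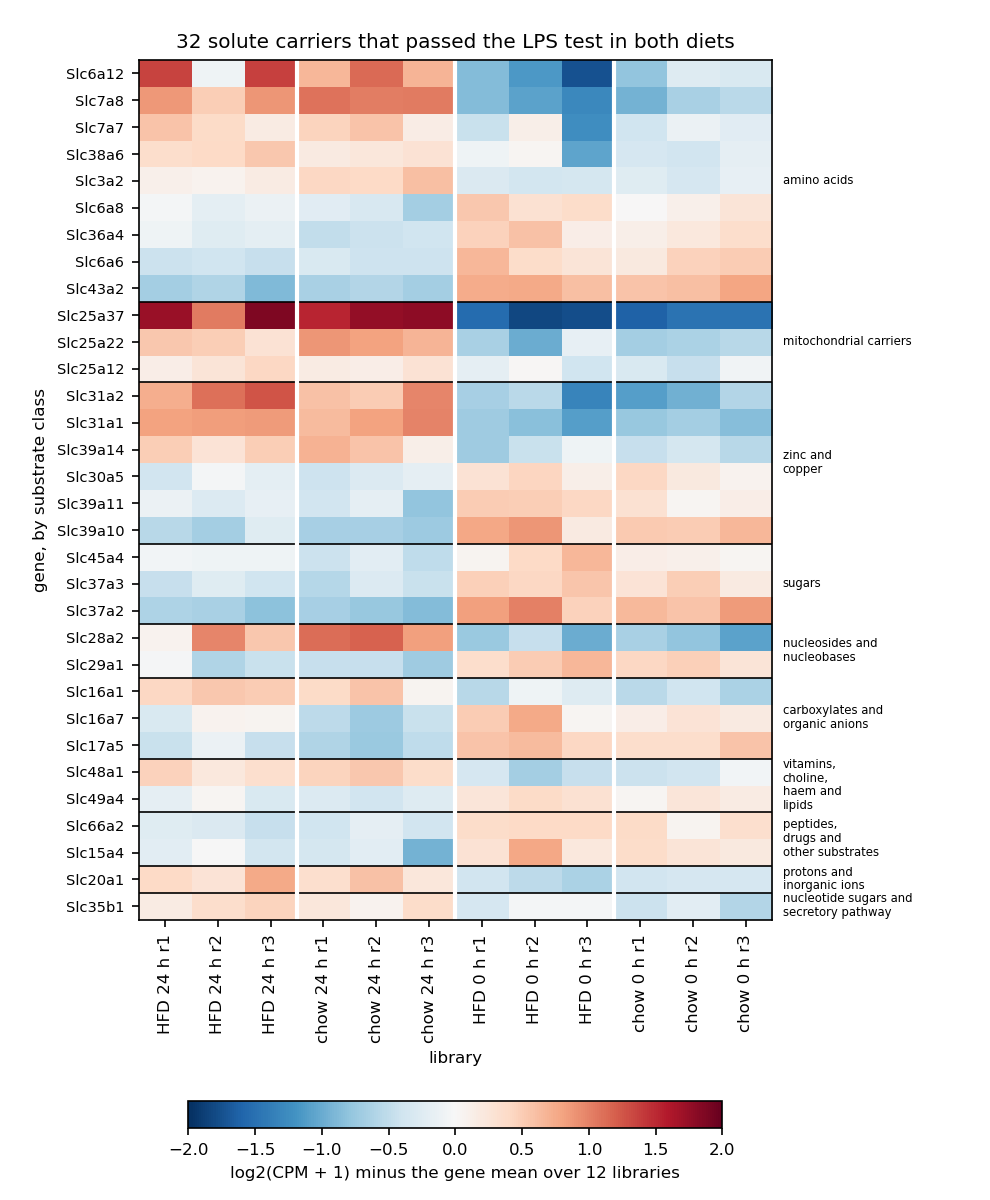
The 32 solute carriers that passed the LPS test in both diets, one row per gene ordered by substrate class, one column per library in the order HFD 24 h, chow 24 h, HFD 0 h and chow 0 h, with colour giving log2(CPM + 1) minus the gene's mean over the 12 libraries. The 24 h and 0 h columns take opposite colours in most rows, deepest in Slc25a37, and libraries of one time look alike across diets.

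**Figure D2:**
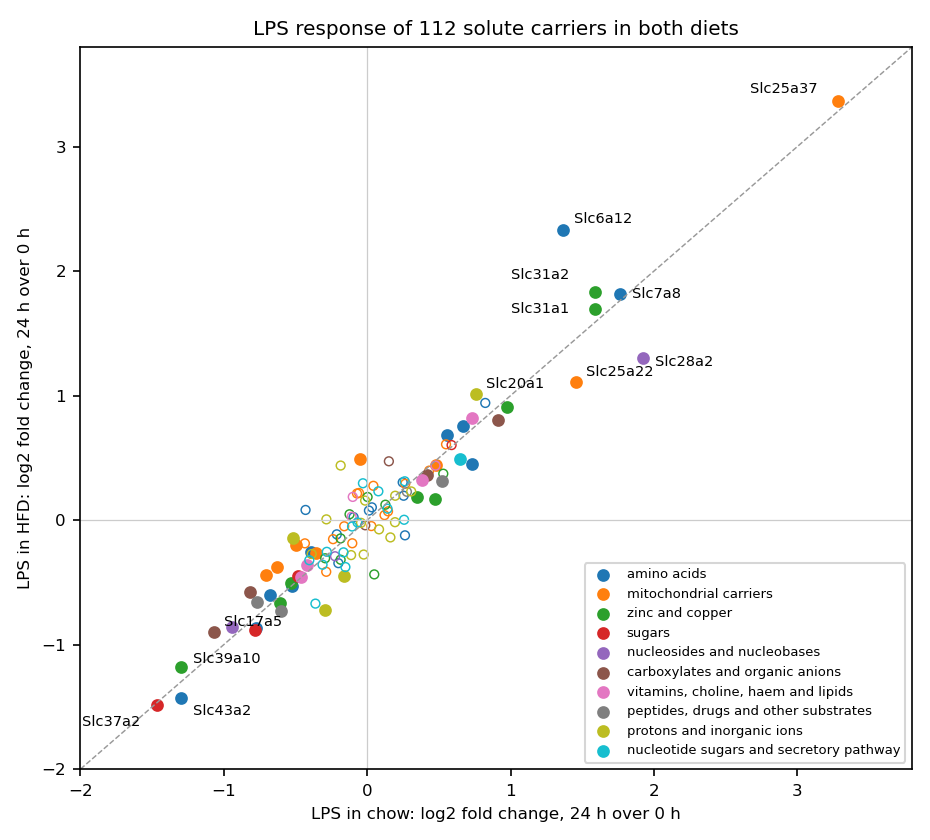
Log2 fold change with LPS (24 h over 0 h) of each of the 112 members in HFD (vertical axis) against chow (horizontal axis), coloured by substrate class, with filled points for members that passed in at least 1 diet and open points for the others. The members that passed lie along the dashed line of equal change, from Slc37a2 and Slc43a2 at the lower left to Slc25a37 at 3.36 in HFD and 3.28 in chow.

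Of the metal carriers, both copper transporters rose about 3-fold, while the zinc carriers moved in both directions. Slc31a1 is the high-affinity copper importer of the cell surface, and Slc31a2 is a related protein of endosomes and lysosomes that takes part in releasing copper from them. Slc31a1 counted 227, 233 and 236 CPM in HFD 24 h and 79.6, 72.9 and 60.2 in HFD 0 h. In chow Slc31a1 held 203, 228 and 259 CPM at 24 h and 77.04, 81.3 and 71.5 at 0 h. Slc31a2 counted 215, 278 and 309 CPM in HFD 24 h and 81.1, 88.8 and 50.8 in HFD 0 h. In chow Slc31a2 held 194, 183 and 256 CPM at 24 h and 59.7, 65.8 and 85.2 at 0 h. Every 24 h library lay above every 0 h library of its diet for both genes. The log2 fold changes of Slc31a1 were 1.70 ± 0.14 in HFD (adjusted p = 5.51e-08) and 1.59 ± 0.13 in chow (adjusted p = 9.4e-08), where ± gives the SE. Those of Slc31a2 were 1.83 ± 0.21 in HFD (adjusted p = 3.75e-06) and 1.59 ± 0.20 in chow (adjusted p = 1.45e-05).

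The pair lie on the forward strand of chromosome 4 (Slc31a2 at 62280393 to 62298412 and Slc31a1 at 62360583 to 62391769, GRCm38.p6), 62.2 kb apart. No other member lies between them, and genes outside the members were not looked for there. Their promoters are printed because the genes lie on 1 strand within 62.2 kb and moved together. Each has 300 bases around the listed start, taken from RefSeq on GRCm38.p6. The window of Slc31a1 is chr4:62360451-62360750 and that of Slc31a2 chr4:62286179-62286478, both on the + strand. Capitals mark matches to the letters searched on both strands, the PU.1 core GAGGAAG in Slc31a1 (bases 2 to 8) and, in Slc31a2, the antioxidant response element core TGACNNNGC (bases 87 to 95) and the E-box CACGTG (bases 251 to 256).
Slc31a1: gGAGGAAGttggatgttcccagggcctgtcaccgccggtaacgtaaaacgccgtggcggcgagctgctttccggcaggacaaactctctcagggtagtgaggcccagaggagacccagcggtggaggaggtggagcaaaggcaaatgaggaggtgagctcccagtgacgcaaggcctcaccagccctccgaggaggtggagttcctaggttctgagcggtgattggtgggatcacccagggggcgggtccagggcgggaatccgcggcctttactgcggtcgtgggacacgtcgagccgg
Slc31a2: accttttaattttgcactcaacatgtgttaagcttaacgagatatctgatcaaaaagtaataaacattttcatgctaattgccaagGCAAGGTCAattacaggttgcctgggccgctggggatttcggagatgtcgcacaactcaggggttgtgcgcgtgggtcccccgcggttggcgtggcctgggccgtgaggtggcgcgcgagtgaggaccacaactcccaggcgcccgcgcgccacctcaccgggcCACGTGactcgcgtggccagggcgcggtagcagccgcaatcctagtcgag
The 2 windows shared no match to the letters searched, which also included the AP-1 site TGANTCA and TGATGNAA, the core of the amino acid response element. Over all 32817 promoters in the table the PU.1 core stood in 13.6%, the antioxidant core in 12.4%, the E-box in 7.15%, the AP-1 site in 7.81% and the amino acid core in 3.97%. Over 116 promoters of 83 members, the shares were 12.1%, 18.1%, 15.5%, 6.9% and 3.45% in the same order. A match describes letters in the window and does not mark a bound site.

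Among the zinc carriers, Slc39a14, an importer of zinc and of iron not bound to transferrin, rose in both diets. Its libraries held 30.7, 26.3 and 30.6 CPM in HFD 24 h and 12.7, 15.5 and 20.2 in HFD 0 h. In chow Slc39a14 held 35.5, 32.4 and 23.4 CPM at 24 h and 15.3, 16.6 and 14.4 at 0 h. The 24 h values lay above all 0 h values, with log2 fold changes of 0.91 ± 0.20 in HFD (adjusted p = 0.00219) and 0.98 ± 0.19 in chow (adjusted p = 0.000739). The chow call ended with the lane tag in the model (adjusted p = 0.125). Slc39a10, a zinc importer of the cell surface, went the other way with 20.3, 18.6 and 25.7 CPM in HFD 24 h and 52.9, 56.7 and 34.6 in HFD 0 h. In chow Slc39a10 held 18.8, 18.8 and 17.9 CPM at 24 h and 44.4, 43.7 and 48.6 at 0 h. These groups did not overlap either, and the log2 fold changes were -1.18 ± 0.17 in HFD (adjusted p = 6.25e-05) and -1.30 ± 0.17 in chow (adjusted p = 2.04e-05). Also lower at 24 h in both diets were Slc39a11, another zinc importer, with -0.67 ± 0.15 in HFD (adjusted p = 0.00301) and -0.61 ± 0.15 in chow (adjusted p = 0.00528), and Slc30a5, which loads zinc into the secretory pathway, with -0.51 ± 0.15 in HFD (adjusted p = 0.0183) and -0.53 ± 0.15 in chow (adjusted p = 0.0114). The Slc39a11 call in chow ended without both chow replicate 1 libraries (adjusted p = 0.0703) and with the lane tag (adjusted p = 0.109). The Slc30a5 call ended in HFD with adjusted p 0.059 to 0.0965 without replicate 1 or 3 of HFD 24 h or replicate 1 or 2 of HFD 0 h and 0.0691 with the lane tag. In chow it ended with adjusted p 0.0794 to 0.0987 without replicate 1 of chow 24 h or replicate 1 of chow 0 h, 0.232 without both chow replicate 1 libraries and 0.6 with the lane tag (log2 fold change -0.26).

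In chow the importers Slc39a6, of the cell surface, and Slc39a7, which releases zinc from the endoplasmic reticulum, passed with 0.34 ± 0.12 and 0.47 ± 0.16, and in HFD they had 0.18 ± 0.12 and 0.17 ± 0.16 (adjusted p = 0.32 and 0.493). Both chow calls ended when 1 library was left out. Slc39a6 then had adjusted p 0.0658 to 0.178 without replicate 1, 2 or 3 of chow 24 h or replicate 1, 2 or 3 of chow 0 h, 0.155 without both chow replicate 1 libraries and 0.199 with the lane tag. Slc39a7 had adjusted p 0.0982 to 0.13 without replicate 1 or 2 of chow 24 h or replicate 2 or 3 of chow 0 h, 0.154 without both chow replicate 1 libraries and 0.836 with the lane tag (log2 fold change 0.13). Of the counted transcript of Slc39a7, 86% overlaps the exons of Gm20427 on the same strand, so reads of these genes cannot be told apart. The zinc exporter Slc30a1 and the importer Slc39a1 had the highest CPM of the zinc carriers. Slc30a1 averaged 130.2 ± 29.4 CPM in HFD 24 h, 162 ± 25.3 in HFD 0 h, 154 ± 30.9 in chow 24 h and 175 ± 9.09 in chow 0 h (SD, n = 3), with log2 fold changes of -0.32 ± 0.18 in HFD (adjusted p = 0.211) and -0.19 ± 0.17 in chow (adjusted p = 0.492). Slc39a1 averaged 157 ± 29.6 CPM in HFD 24 h, 172 ± 37.3 in HFD 0 h, 155 ± 14.04 in chow 24 h and 176 ± 11.5 in chow 0 h, and its log2 fold changes were -0.15 ± 0.17 in HFD (adjusted p = 0.583) and -0.19 ± 0.17 in chow (adjusted p = 0.466). Both had overlapping groups. Of the 16 zinc and copper carriers, 3 rose and 3 fell in HFD and 5 rose and 3 fell in chow. These are 37.5% and 50%, beside 31.9% and 34.2% of genes with a mean of at least 200 counts, a difference that was not tested. Their summed level was 1267 to 1394 CPM in HFD 24 h, 948 to 1166 in HFD 0 h, 1260 to 1334 in chow 24 h and 993 to 1057 in chow 0 h. In group means, Slc31a1 with Slc31a2 rose by more than this sum did in both diets. The group mean of the zinc carriers together was thus somewhat lower at 24 h in each diet. Their sum was not taken in each library, and the difference was not tested.

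**Figure D3:**
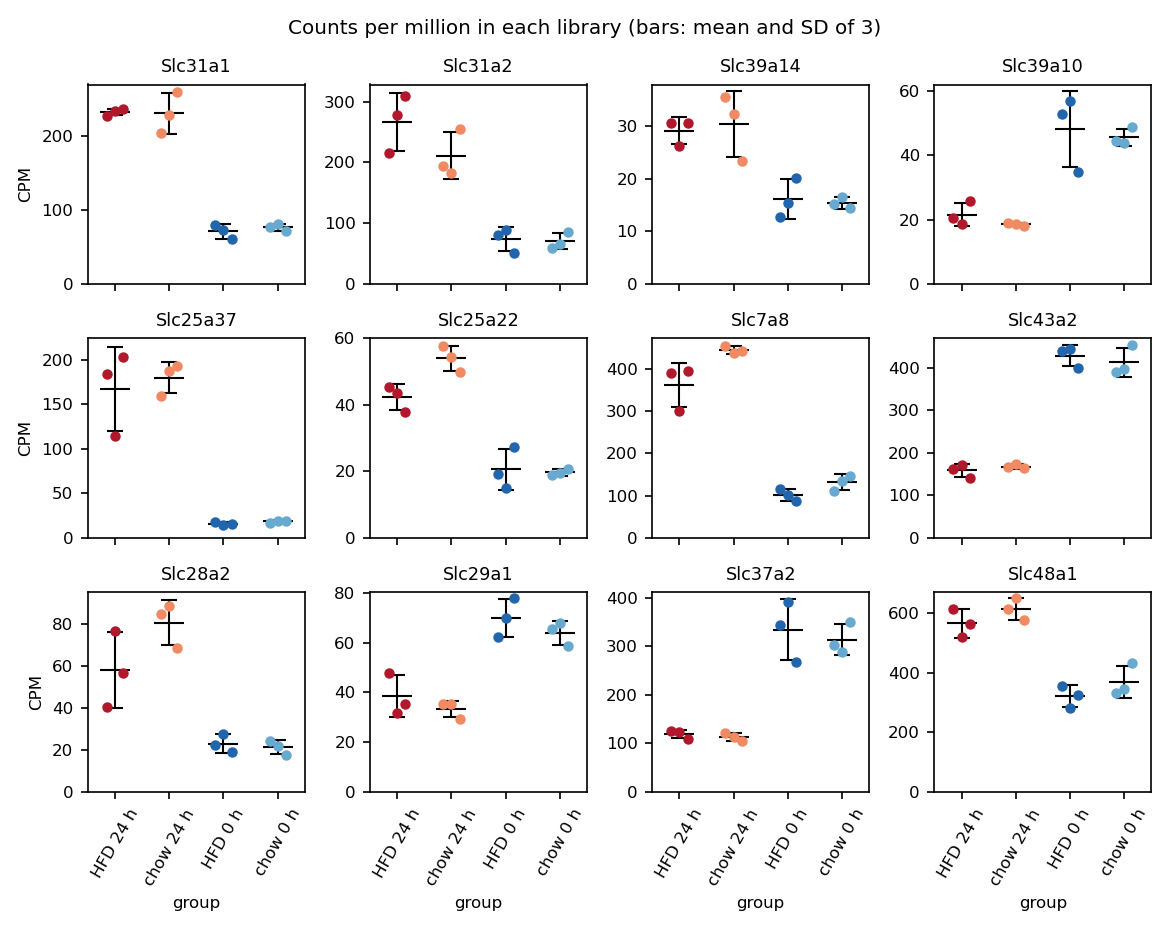
CPM of 12 members in each library (points), with the mean and SD of 3 libraries (black), for HFD 24 h, chow 24 h, HFD 0 h and chow 0 h. Slc31a1, Slc31a2, Slc39a14, Slc25a37, Slc25a22, Slc7a8, Slc28a2 and Slc48a1 are higher at 24 h and Slc39a10, Slc43a2, Slc29a1 and Slc37a2 lower, with no overlap between the times within a diet. All 12 were named by a rule that required no overlap in at least 1 diet.

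Of the mitochondrial carriers, Slc25a37 had the largest log2 fold change. Its mean count was 2659 at 24 h and 171 at 0 h, so it too met the threshold of 200 through the 24 h libraries. It encodes mitoferrin 1, which brings iron into mitochondria for haem and iron-sulfur clusters, and lies on chromosome 14 (69241848 to 69285544, GRCm38.p6). Its libraries held 184, 114 and 203 CPM in HFD 24 h and 18.2, 14.8 and 15.3 in HFD 0 h. In chow Slc25a37 held 159.9, 188 and 193 CPM at 24 h and 17.2, 19.2 and 19.1 at 0 h. The lowest 24 h library, HFD 24 h replicate 2, was still several times above the highest 0 h library. The log2 fold changes were 3.36 ± 0.20 in HFD (adjusted p = 1.64e-09) and 3.28 ± 0.19 in chow (adjusted p = 1.22e-09). The related mitoferrin 2, Slc25a28, averaged 23.6 ± 4.86 CPM in HFD 24 h, 15.1 ± 3.04 in HFD 0 h, 25.1 ± 6.07 in chow 24 h and 17.1 ± 3.60 in chow 0 h and did not pass, with 0.61 ± 0.23 in HFD (adjusted p = 0.0677) and 0.55 ± 0.22 in chow (adjusted p = 0.0812).

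Slc25a22, a glutamate carrier that works with protons, also rose. It counted 45.4, 43.7 and 37.9 CPM in HFD 24 h and 19.4, 15.03 and 27.4 in HFD 0 h. In chow Slc25a22 held 57.6, 54.4 and 50.05 CPM at 24 h and 18.9, 19.5 and 20.7 at 0 h. Both 24 h groups lay above the 0 h groups, with log2 fold changes of 1.11 ± 0.18 in HFD (adjusted p = 0.000154) and 1.45 ± 0.17 in chow (adjusted p = 4.75e-06). The aspartate-glutamate exchangers of the malate-aspartate shuttle parted. Slc25a12 rose in both diets with 0.44 ± 0.15 in HFD (adjusted p = 0.0398) and 0.48 ± 0.15 in chow (adjusted p = 0.0221), whereas Slc25a13 fell in chow with -0.71 ± 0.20 (adjusted p = 0.0134) and had -0.44 ± 0.20 in HFD (adjusted p = 0.123). The Slc25a12 call ended in HFD with adjusted p 0.066 to 0.121 without replicate 2 or 3 of HFD 24 h or replicate 1 or 3 of HFD 0 h and 0.0733 without both chow replicate 1 libraries. In chow it ended with adjusted p 0.0563 to 0.128 without replicate 3 of chow 24 h or replicate 1 or 2 of chow 0 h, 0.13 without both chow replicate 1 libraries and 0.103 with the lane tag. The Slc25a13 call ended with adjusted p 0.0573 to 0.0604 without replicate 1 of chow 24 h or replicate 1 of chow 0 h, 0.147 without both chow replicate 1 libraries and 0.389 with the lane tag.

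Of the 22 mitochondrial carriers, 4 rose and none fell in HFD, and 3 rose and 4 fell in chow. These are 18.2% in HFD and 31.8% in chow, beside 24.6% and 26.5% of all genes. Among genes with a mean of at least 200 counts the shares were 31.9% and 34.2%. The other decreases in chow were Slc25a10, a dicarboxylate carrier (-0.50 ± 0.17), Slc25a30 (-0.63 ± 0.17) and Slc25a44, which carries branched-chain amino acids (-0.36 ± 0.13). In HFD these had -0.20 ± 0.18, -0.38 ± 0.17 and -0.26 ± 0.13 in the same order and did not pass. These calls ended when 1 library was left out. Slc25a10 then had adjusted p 0.055 to 0.18 without replicate 3 of HFD 24 h or replicate 1 or 3 of chow 24 h or replicate 1, 2 or 3 of chow 0 h, 0.0788 without both chow replicate 1 libraries and 0.0638 with the lane tag (log2 fold change -0.87). Slc25a30 had adjusted p 0.0627 without replicate 3 of chow 24 h and 0.698 with the lane tag (log2 fold change -0.23). Slc25a44 had adjusted p 0.0529 to 0.162 without replicate 1 or 2 of HFD 24 h or replicate 1 of HFD 0 h or replicate 1, 2 or 3 of chow 24 h or replicate 1, 2 or 3 of chow 0 h, 0.245 without both chow replicate 1 libraries and 0.263 with the lane tag.

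The abundant mitochondrial carriers of phosphate and of adenine nucleotides did not pass in either diet. The phosphate carrier Slc25a3 averaged 251 ± 12.7 CPM in HFD 24 h, 278 ± 64.05 in HFD 0 h, 252 ± 58.5 in chow 24 h and 297 ± 25.3 in chow 0 h, and its log2 fold changes were -0.15 ± 0.17 in HFD (adjusted p = 0.586) and -0.24 ± 0.17 in chow (adjusted p = 0.359). For the nucleotide exchangers the values were -0.05 ± 0.17 in HFD (adjusted p = 0.87) and -0.16 ± 0.17 in chow (adjusted p = 0.54) for Slc25a5 and 0.04 ± 0.14 in HFD (adjusted p = 0.874) and 0.12 ± 0.14 in chow (adjusted p = 0.581) for Slc25a4. Likewise the citrate carrier Slc25a1 had 0.28 ± 0.21 in HFD (adjusted p = 0.389) and 0.04 ± 0.21 in chow (adjusted p = 0.912), with its 24 h and 0 h libraries overlapping in both diets. Slc25a39, a carrier of glutathione, had -0.19 ± 0.18 in HFD (adjusted p = 0.496) and -0.10 ± 0.17 in chow (adjusted p = 0.722).

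The amino acid carriers held both strong increases and strong decreases. Slc7a8, which pairs with the heavy chain Slc3a2 to exchange neutral amino acids and lies on chromosome 14 (54722215 to 54781886), counted 390.0, 301 and 395 CPM in HFD 24 h and 117, 102 and 86.8 in HFD 0 h. In chow Slc7a8 held 454, 437 and 444 CPM at 24 h and 111, 136 and 148 at 0 h. The lowest 24 h library was more than 2-fold above the highest 0 h one in each diet, and the log2 fold changes were 1.82 ± 0.15 in HFD (adjusted p = 1.02e-07) and 1.76 ± 0.15 in chow (adjusted p = 1.2e-07). Slc3a2 itself counted 442, 433 and 462 CPM in HFD 24 h and 336, 319 and 323 in HFD 0 h. In chow Slc3a2 held 552, 544 and 625 CPM at 24 h and 346, 327 and 366 at 0 h. Its rise was smaller, and its groups did not overlap, with 0.45 ± 0.11 in HFD (adjusted p = 0.0064) and 0.73 ± 0.11 in chow (adjusted p = 9.95e-05). Slc7a7, the light chain that exports cationic amino acids, rose with 0.75 ± 0.23 in HFD (adjusted p = 0.025) and 0.67 ± 0.23 in chow (adjusted p = 0.0372). The Slc7a7 call ended in HFD with adjusted p 0.0595 to 0.0807 without replicate 1 of HFD 24 h or replicate 1 or 3 of HFD 0 h and 0.0838 with the lane tag. In chow it ended with adjusted p 0.0667 to 0.119 without replicate 1 or 2 of chow 24 h or replicate 1, 2 or 3 of chow 0 h, 0.237 without both chow replicate 1 libraries and 0.654 with the lane tag (log2 fold change 0.37). The best known partner, the leucine importer Slc7a5, averaged 27.8 ± 4.58 CPM in HFD 24 h, 15.8 ± 7.83 in HFD 0 h, 31.9 ± 10.7 in chow 24 h and 17.98 ± 5.62 in chow 0 h with overlapping groups and did not pass, with 0.94 ± 0.33 in HFD (adjusted p = 0.0512) and 0.82 ± 0.31 in chow (adjusted p = 0.0629).

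Slc43a2, a uniporter of large neutral amino acids, was the amino acid carrier that fell furthest. Its libraries held 163, 171 and 142 CPM in HFD 24 h and 439.7, 445 and 399 in HFD 0 h. In chow Slc43a2 held 166, 174 and 163 CPM at 24 h and 389, 398 and 452 at 0 h. Each 0 h library held more than 2-fold the level of any 24 h library of its diet, and the log2 fold changes were -1.43 ± 0.12 in HFD (adjusted p = 1.12e-07) and -1.30 ± 0.12 in chow (adjusted p = 3.26e-07). The promoters of the 2 amino acid carriers that moved furthest in opposite directions at a level above 100 CPM are printed on the gene's own strand, that of Slc7a8 at chr14:54781837-54782136 on the - strand and that of Slc43a2 at chr11:75531862-75532161 on the + strand.
Slc7a8: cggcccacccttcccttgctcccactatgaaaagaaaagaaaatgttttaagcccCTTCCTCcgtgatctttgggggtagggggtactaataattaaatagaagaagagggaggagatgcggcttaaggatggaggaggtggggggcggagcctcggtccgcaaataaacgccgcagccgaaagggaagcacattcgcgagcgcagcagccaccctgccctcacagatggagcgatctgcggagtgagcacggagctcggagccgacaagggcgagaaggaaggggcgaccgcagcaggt
Slc43a2: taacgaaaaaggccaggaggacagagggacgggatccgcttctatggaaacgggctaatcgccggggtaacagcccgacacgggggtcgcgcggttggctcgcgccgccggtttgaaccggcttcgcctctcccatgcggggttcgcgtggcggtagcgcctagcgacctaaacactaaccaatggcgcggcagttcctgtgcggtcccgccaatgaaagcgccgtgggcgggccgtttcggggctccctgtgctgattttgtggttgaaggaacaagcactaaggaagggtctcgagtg
Capitals mark the PU.1 core at bases 56 to 62 of the Slc7a8 window. The Slc43a2 window, 1 of 2 starts listed for the gene, held none of the letters searched.

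The transporters of taurine and creatine, 2 abundant amino acid derivatives, also fell. Slc6a6, the taurine importer, counted 767, 785 and 748 CPM in HFD 24 h and 1632, 1331 and 1234 in HFD 0 h. In chow Slc6a6 held 836, 778 and 775 CPM at 24 h and 1181, 1425 and 1475 at 0 h. The lowest 0 h value was 1181 CPM and the highest 24 h value 836 CPM. The log2 fold changes were -0.87 ± 0.13 in HFD (adjusted p = 8.78e-05) and -0.77 ± 0.13 in chow (adjusted p = 0.000258). The creatine importer Slc6a8 averaged 542 ± 27.03 CPM in HFD 24 h, 779.5 ± 68.3 in HFD 0 h, 445 ± 71.5 in chow 24 h and 641 ± 58.1 in chow 0 h. Its log2 fold changes were -0.53 ± 0.14 in HFD (adjusted p = 0.00826) and -0.53 ± 0.14 in chow (adjusted p = 0.00784), and the chow call ended with the lane tag (adjusted p = 0.123). In the same family Slc6a12, an importer of betaine and GABA, rose at a low level. Its mean count was 346 at 24 h and 67.7 at 0 h, so it met the threshold of 200 through the 24 h libraries. It held 30.5, 10.6 and 30.9 CPM in HFD 24 h and 5.83, 4.56 and 2.70 in HFD 0 h. In chow Slc6a12 held 18.7, 26.1 and 18.9 CPM at 24 h and 6.18, 9.41 and 9.06 at 0 h. Each 24 h library was above the 0 h libraries of its diet. The log2 fold changes were 2.33 ± 0.38 in HFD (adjusted p = 0.00018) and 1.37 ± 0.33 in chow (adjusted p = 0.0056), and the chow call ended with the lane tag (0.82, adjusted p = 0.439).

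The carriers of family Slc38, several of which move glutamine, mostly did not pass. Slc38a6 rose with 0.68 ± 0.19 in HFD (adjusted p = 0.0143) and 0.55 ± 0.19 in chow (adjusted p = 0.0377). The Slc38a6 call in chow ended with adjusted p 0.0564 to 0.135 without replicate 1, 2 or 3 of chow 24 h or replicate 1, 2 or 3 of chow 0 h, 0.16 without both chow replicate 1 libraries and 0.252 with the lane tag. Slc38a1 fell in chow with -0.40 ± 0.11 (adjusted p = 0.0145) and had -0.26 ± 0.11 in HFD. The Slc38a1 call ended with adjusted p 0.0545 to 0.0649 without replicate 1 or 2 of chow 24 h or replicate 2 or 3 of chow 0 h, 0.103 without both chow replicate 1 libraries and 0.214 with the lane tag. Slc38a2, the next member along chromosome 15 at 44.0 kb from Slc38a1, had -0.35 ± 0.14 in HFD and -0.20 ± 0.13 in chow and did not pass. Slc38a9, the lysosomal carrier through which arginine is sensed, had 0.08 ± 0.17 in HFD (adjusted p = 0.788) and -0.43 ± 0.17 in chow (adjusted p = 0.0737). The proton-coupled carrier Slc36a4 fell with -0.60 ± 0.14 in HFD (adjusted p = 0.00288) and -0.68 ± 0.13 in chow (adjusted p = 0.000987), while Slc36a1, of lysosomes, had 0.02 ± 0.15 in HFD (adjusted p = 0.929) and -0.09 ± 0.15 in chow (adjusted p = 0.695). The glutamine importer Slc1a5 had 0.10 ± 0.18 and 0.03 ± 0.18, and the cationic amino acid importer Slc7a1 had 0.30 ± 0.15 and 0.25 ± 0.15, in HFD and in chow. Of the 20 members of the class, 5 rose and 4 fell in HFD and 5 rose and 5 fell in chow. These are 45% and 50%, beside 31.9% and 34.2% of genes with a mean of at least 200 counts, and the difference was not tested.

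Of the 4 sugar carriers among the members, 3 fell after LPS in both diets (75%, beside 31.9% of genes with a mean of at least 200 counts in HFD and 34.2% in chow). The glucose carrier Slc2a1 and its relative Slc2a6 had been left out by name. The 4 therefore do not stand for sugar carriers in general. Slc37a2 exchanges glucose 6-phosphate for phosphate across the endoplasmic reticulum and is known for its high level in macrophages. It counted 126, 124 and 109 CPM in HFD 24 h and 344, 392 and 267 in HFD 0 h. In chow Slc37a2 held 122, 114 and 105 CPM at 24 h and 303, 289 and 350.0 at 0 h. The highest 24 h value was 126 CPM and the lowest 0 h value 267 CPM. Its log2 fold changes, -1.49 ± 0.15 in HFD (adjusted p = 6.56e-07) and -1.47 ± 0.15 in chow (adjusted p = 6.88e-07), were the most negative of all members in both diets. Slc37a3 of the same family fell with -0.88 ± 0.16 in HFD (adjusted p = 0.000606) and -0.79 ± 0.16 in chow (adjusted p = 0.00131), the chow call ending with the lane tag (adjusted p = 0.195). Slc45a4, assigned to proton-coupled sugar transport, fell with -0.45 ± 0.15 in HFD (adjusted p = 0.0411) and -0.48 ± 0.15 in chow (adjusted p = 0.0259). The Slc45a4 call ended in HFD with adjusted p 0.0507 to 0.144 without replicate 1, 2 or 3 of HFD 24 h or replicate 2 or 3 of HFD 0 h or replicate 1, 2 or 3 of chow 24 h or replicate 1, 2 or 3 of chow 0 h, 0.0787 without both chow replicate 1 libraries and 0.0699 with the lane tag. In chow it ended with adjusted p 0.0568 to 0.101 without replicate 1 or 3 of chow 24 h or replicate 1, 2 or 3 of chow 0 h, 0.189 without both chow replicate 1 libraries and 0.274 with the lane tag. The remaining sugar carrier of the 4, Slc50a1, had 0.60 ± 0.25 in HFD (adjusted p = 0.098) and 0.59 ± 0.24 in chow (adjusted p = 0.0895). The sum of the 4 was 176 to 198 CPM in HFD 24 h, 359 to 481 in HFD 0 h, 170.0 to 185 in chow 24 h and 371 to 425 in chow 0 h, most of it Slc37a2.

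The nucleoside carriers moved in both directions. Slc28a2, which concentrates purine nucleosides with sodium, counted 40.7, 76.9 and 56.5 CPM in HFD 24 h and 22.5, 27.6 and 18.9 in HFD 0 h. In chow Slc28a2 held 84.7, 88.8 and 68.5 CPM at 24 h and 24.3, 21.7 and 17.8 at 0 h. HFD 24 h replicate 1 was the lowest of the 24 h libraries and still above every 0 h library. The log2 fold changes were 1.30 ± 0.22 in HFD (adjusted p = 0.000188) and 1.92 ± 0.21 in chow (adjusted p = 2.18e-06). Slc29a1, the equilibrative carrier of the cell surface, counted 47.9, 31.9 and 35.5 CPM in HFD 24 h and 62.3, 69.9 and 77.8 in HFD 0 h. In chow Slc29a1 held 35.2, 35.3 and 29.5 CPM at 24 h and 65.4, 67.9 and 58.6 at 0 h. It fell without overlap, with -0.86 ± 0.16 in HFD (adjusted p = 0.000603) and -0.94 ± 0.16 in chow (adjusted p = 0.000217) and, with the lane tag, -1.45 in chow, and 13.8% of its counted transcript overlaps an antisense gene. The lysosomal relative Slc29a3, the most abundant of the 3, averaged 304 ± 27.8 CPM in HFD 24 h, 371 ± 83.8 in HFD 0 h, 292 ± 34.2 in chow 24 h and 341 ± 65.1 in chow 0 h and had -0.29 ± 0.17 in HFD (adjusted p = 0.246) and -0.22 ± 0.17 in chow (adjusted p = 0.381).

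**Figure D4:**
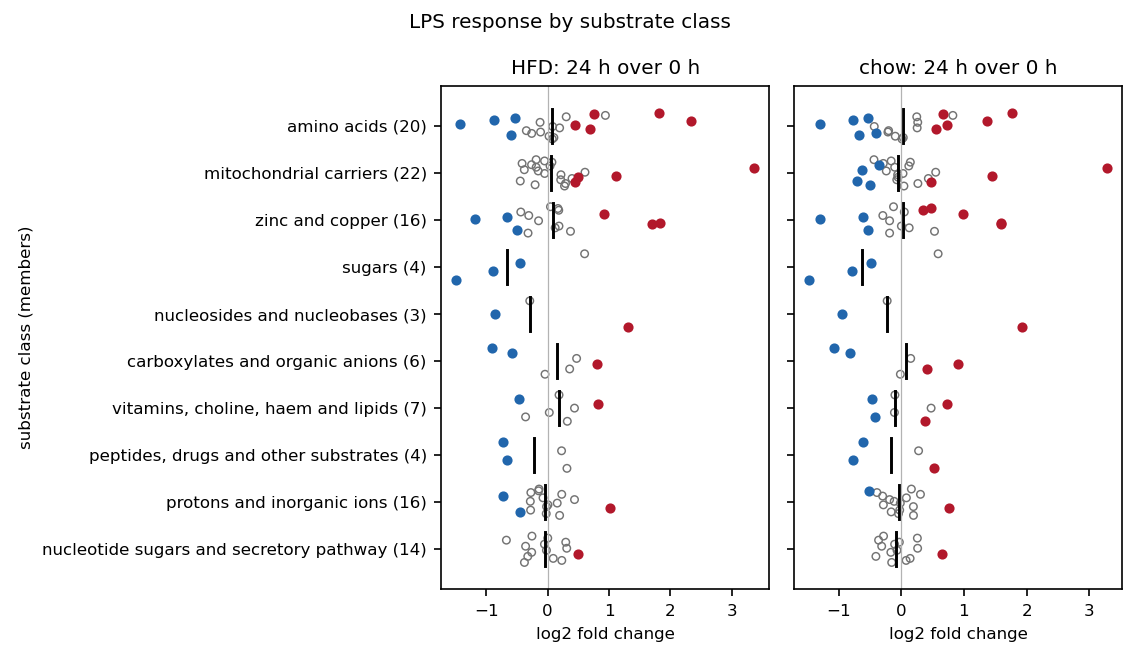
Log2 fold change with LPS of each member in HFD (left) and chow (right), one row per substrate class with its number of members, red for members that rose, blue for those that fell, open for those that did not pass, and a black bar at the class median. Red and blue points stand in the same row in most classes, while the nucleotide sugar and ion classes are mostly open.

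The members from the monocarboxylate family Slc16 split in the same way. Slc16a3 had been left out by name, so they do not stand for the whole family. Slc16a1, which moves lactate and pyruvate with protons, counted 32.2, 35.1 and 34.2 CPM in HFD 24 h and 15.9, 22.5 and 19.8 in HFD 0 h. In chow Slc16a1 held 31.4, 36.1 and 24.7 CPM at 24 h and 16.01, 17.9 and 14.97 at 0 h. The 24 h libraries were all higher than the 0 h ones, with 0.81 ± 0.18 in HFD (adjusted p = 0.00253) and 0.91 ± 0.17 in chow (adjusted p = 0.000668). Slc16a7, its relative with a higher affinity for pyruvate, fell in chow with -0.81 ± 0.19 (adjusted p = 0.00382), and with the lane tag had -0.43 (adjusted p = 0.487). In HFD it passed with -0.58 ± 0.19 (adjusted p = 0.0337) although the groups overlapped. This call ended with adjusted p 0.0534 to 0.194 without replicate 1, 2 or 3 of HFD 24 h or replicate 1 or 2 of HFD 0 h or replicate 1 of chow 24 h or replicate 1, 2 or 3 of chow 0 h, 0.0638 without both chow replicate 1 libraries and 0.115 with the lane tag. Basigin (Bsg) and embigin (Emb), the chaperones that carry these proteins to the surface, had log2 fold changes of 0.42 ± 0.16 and 0.21 ± 0.15 in HFD and 0.33 ± 0.16 and 0.36 ± 0.15 in chow, none of which passed. Slc17a5, sialin, the exporter of sialic acid from lysosomes, counted 31.3, 39.9 and 31.1 CPM in HFD 24 h and 64.6, 67.5 and 57.5 in HFD 0 h. In chow Slc17a5 held 27.9, 25.4 and 29.9 CPM at 24 h and 55.2, 55.2 and 64.4 at 0 h. Here the 0 h libraries were all higher, and the log2 fold changes were -0.90 ± 0.14 in HFD (adjusted p = 0.000133) and -1.07 ± 0.14 in chow (adjusted p = 1.94e-05). Slc10a7 rose in chow with 0.41 ± 0.14 (adjusted p = 0.0423), beside 0.36 ± 0.15 in HFD. The Slc10a7 call ended with adjusted p 0.0598 to 0.184 without replicate 1 or 3 of chow 24 h or replicate 1, 2 or 3 of chow 0 h, 0.257 without both chow replicate 1 libraries and 0.174 with the lane tag. Slc16a6 had 0.47 ± 0.18 in HFD (adjusted p = 0.0694) and 0.15 ± 0.18 in chow (adjusted p = 0.599).

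Among carriers of haem and vitamins, Slc48a1 rose. It delivers haem from the lysosomes of macrophages that have engulfed red cells. Its libraries held 615, 519 and 565 CPM in HFD 24 h and 355, 281 and 326 in HFD 0 h. In chow Slc48a1 held 615, 651 and 577 CPM at 24 h and 334, 344 and 432 at 0 h. No 24 h library fell within the 0 h range of its diet, and the log2 fold changes were 0.82 ± 0.14 in HFD (adjusted p = 0.000206) and 0.73 ± 0.14 in chow (adjusted p = 0.000556), the chow call ending with the lane tag (adjusted p = 0.186). The ascorbate importer Slc23a2 rose in chow with 0.38 ± 0.12 (adjusted p = 0.0214) and had 0.32 ± 0.12 in HFD (adjusted p = 0.0573). The Slc23a2 call ended with adjusted p 0.0626 to 0.0729 without replicate 1, 2 or 3 of chow 0 h, 0.141 without both chow replicate 1 libraries and 0.18 with the lane tag. The choline carrier Slc44a1 fell in chow with -0.42 ± 0.13 (adjusted p = 0.0208) beside -0.36 ± 0.13 in HFD (adjusted p = 0.0508). The Slc44a1 call ended with adjusted p 0.0538 to 0.112 without replicate 1 or 2 of chow 24 h or replicate 1, 2 or 3 of chow 0 h, 0.163 without both chow replicate 1 libraries and 0.556 with the lane tag (log2 fold change -0.25). Slc49a4, of lysosomes, fell with -0.46 ± 0.13 in HFD (adjusted p = 0.0156) and -0.46 ± 0.13 in chow (adjusted p = 0.0133). The Slc49a4 call ended in HFD with adjusted p 0.0567 to 0.0996 without replicate 1 or 3 of HFD 24 h or replicate 2 of HFD 0 h. In chow it ended with adjusted p 0.0503 to 0.0769 without replicate 1 or 2 of chow 24 h or replicate 2 or 3 of chow 0 h, 0.0529 without both chow replicate 1 libraries and 0.329 with the lane tag. The folate importer Slc46a1, the riboflavin importer Slc52a2 and the choline carrier Slc44a2 passed in neither diet.

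The lysosomal carriers of histidine and peptides, which also move bacterial cell wall fragments, differed from each other. Slc15a3 rose in chow and counted 1434, 1070.4 and 1073 CPM in HFD 24 h and 1054, 887 and 934 in HFD 0 h. In chow Slc15a3 held 1684, 1604 and 1103 CPM at 24 h and 1015, 990.3 and 1060.1 at 0 h. In both diets the 24 h libraries lay above those of 0 h, with 0.31 ± 0.16 in HFD (adjusted p = 0.178) and 0.52 ± 0.16 in chow (adjusted p = 0.0241). The chow call ended with adjusted p 0.0522 to 0.0925 without replicate 1 or 2 of chow 24 h or replicate 1 or 2 of chow 0 h, 0.227 without both chow replicate 1 libraries and 0.879 with the lane tag (log2 fold change 0.10). Slc15a4 fell in both diets with -0.66 ± 0.19 in HFD (adjusted p = 0.017) and -0.77 ± 0.19 in chow (adjusted p = 0.00577). The Slc15a4 call ended in HFD with adjusted p 0.087 to 0.124 without replicate 3 of HFD 24 h or replicate 2 of HFD 0 h and in chow with the lane tag (adjusted p = 0.216). Slc66a2 fell with -0.73 ± 0.14 in HFD (adjusted p = 0.000671) and -0.60 ± 0.14 in chow (adjusted p = 0.0028). Its chow call ended without both chow replicate 1 libraries (adjusted p = 0.0827) and with the lane tag (adjusted p = 0.0555). Slc22a4, the ergothioneine importer, had 0.23 ± 0.20 in HFD and 0.28 ± 0.19 in chow and did not pass.

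Carriers of protons and inorganic ions mostly did not pass. The exception in both diets was Slc20a1, a sodium-phosphate importer, with 56.97, 52.2 and 73.1 CPM in HFD 24 h and 32.8, 29.5 and 27.4 in HFD 0 h. In chow Slc20a1 held 54.3, 65.2 and 50.4 CPM at 24 h and 32.7, 33.7 and 33.8 at 0 h. The 24 h libraries lay above the 0 h libraries in each diet, and the log2 fold changes were 1.01 ± 0.16 in HFD (adjusted p = 9.79e-05) and 0.76 ± 0.15 in chow (adjusted p = 0.000987), with 16.4% of the counted transcript overlapping antisense genes. Slc8b1, the sodium-calcium exchanger of mitochondria, fell in HFD with -0.72 ± 0.16 (adjusted p = 0.00267) and had -0.30 ± 0.16 in chow (adjusted p = 0.195). The potassium-chloride exporter Slc12a7 fell in HFD with -0.45 ± 0.15 (adjusted p = 0.04), beside -0.16 ± 0.15 in chow. The Slc12a7 call ended with adjusted p 0.0539 to 0.141 without replicate 1, 2 or 3 of HFD 24 h or replicate 2 or 3 of HFD 0 h or replicate 1, 2 or 3 of chow 24 h or replicate 1, 2 or 3 of chow 0 h, 0.0565 without both chow replicate 1 libraries and 0.109 with the lane tag. Slc8a1, the sodium-calcium exchanger of the cell surface and one of the 2 members of the class with the highest CPM, had -0.07 ± 0.16 in HFD (adjusted p = 0.79) and 0.08 ± 0.16 in chow (adjusted p = 0.763). Of the 16 members, 1 rose and 2 fell in HFD and 1 rose and 1 fell in chow. These are 18.75% and 12.5%, beside 24.6% and 26.5% of all genes, a difference that was not tested.

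The 14 carriers of nucleotide sugars and other substrates of the secretory pathway were the class with the lowest share of changes. It was 7.14% in each diet, beside 24.6% of all genes in HFD and 26.5% in chow, and the difference was not tested. Only Slc35b1, which exchanges ATP and ADP across the endoplasmic reticulum, passed. It averaged 41.5 ± 4.31 CPM in HFD 24 h, 29.9 ± 3.44 in HFD 0 h, 38.8 ± 3.99 in chow 24 h and 24.8 ± 3.37 in chow 0 h and rose with 0.49 ± 0.16 in HFD (adjusted p = 0.0305) and 0.65 ± 0.15 in chow (adjusted p = 0.00403). The Slc35b1 call in HFD ended with adjusted p 0.0738 to 0.146 without replicate 2 or 3 of HFD 24 h or replicate 1 of HFD 0 h and 0.0606 without both chow replicate 1 libraries. Its chow call ended without both chow replicate 1 libraries (adjusted p = 0.0507). The highest CPM of the class were those of Slc35f6, with -0.25 ± 0.13 in HFD and -0.28 ± 0.13 in chow, and of Slc35b4, with -0.02 ± 0.13 and -0.07 ± 0.13.

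All 112 members together held 10822 to 11444 CPM in HFD 24 h, 10559 to 11976 in HFD 0 h, 10796 to 11610 in chow 24 h and 10603 to 11652 in chow 0 h, and these ranges overlapped. Of the 37 families among the members, 21 had several members, and in 3 of the 21 in HFD (Slc6, Slc16 and Slc39) and 6 in chow (the same 3 with Slc15, Slc25 and Slc38) one member rose and another fell.

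Diet was set against these changes at each time, and no solute carrier passed. After 24 h of LPS, 0 of 112 members differed between HFD and chow by edgeR's quasi-likelihood test, where the background was 0.00791% of all genes, 1 gene. At an unadjusted p under 0.05 there were 9 members, 8.04% beside 7.86% of all genes, and DESeq2 and limma-voom also called 0. The log2 fold changes of HFD over chow ran from -0.47 ± 0.20 in Slc28a2 to 0.55 ± 0.19 in Slc16a7, and the bound of a member's 95% interval furthest from 0 was 0.95 in Slc16a7. The smallest p was that of Slc3a2, with the 3 HFD libraries (442, 433 and 462 CPM) below the 3 chow libraries (552, 544 and 625 CPM). Its log2 fold change was -0.36 ± 0.11 (95% interval -0.60 to -0.13, unadjusted p = 0.00505, adjusted p = 0.455). Slc16a7 counted 13.9, 18.3 and 18.2 CPM in HFD 24 h and 11.8, 10.1 and 12.5 in chow 24 h, which did not overlap (adjusted p = 0.509). At 24 h all HFD libraries lay above all chow libraries for 12 members and below them for 4. Over all 12638 genes these counts were 792 and 756. Slc16a6 had 0.48 ± 0.18, Slc25a16 0.41 ± 0.16 and Slc28a2 -0.47 ± 0.20, with adjusted p of 0.531, 0.557 and 0.609 in that order. Across the alternatives these estimates ran from 0.19 to 0.61, 0.37 to 0.45 and -0.99 to -0.26 in the same order.

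At 0 h, before LPS, 0 of 112 members passed, where 0.087% of all genes did, 11 genes that were all lower in HFD. At an unadjusted p under 0.05 there were 5 members, 4.46% beside 6.16% of all genes, and DESeq2 and limma-voom called 0. The estimates ran from -0.79 ± 0.39 in Slc6a12 (95% interval -1.61 to 0.03) to 0.53 ± 0.19 in Slc33a1. Slc33a1, which takes acetyl-CoA into the endoplasmic reticulum, counted 32.4, 38.1 and 27.4 CPM in HFD 0 h and 21.8, 22.7 and 24.03 in chow 0 h. These values did not overlap, and the adjusted p was 0.62. Of the counted transcript of Slc33a1, 36.1% overlaps an antisense gene. At 0 h all HFD libraries lay above all chow libraries for 13 members and below them for 2, beside 741 and 804 of all 12638 genes. Slc8b1 counted 145, 150.5 and 174 CPM in HFD 0 h and 115, 114 and 116 in chow 0 h, with 0.44 ± 0.16 (adjusted p = 0.634). The zinc importer Slc39a3 had 0.51 ± 0.20, Slc7a8 -0.36 ± 0.15 and Slc35f5 0.37 ± 0.16, with adjusted p of 0.668, 0.746 and 0.751 in that order. Estimates above 0 were found for 74 of 112 members at 24 h and 75 of 112 at 0 h, with medians of 0.08 and 0.09, beside medians of 0.00 over all genes at both times.

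**Figure D5:**
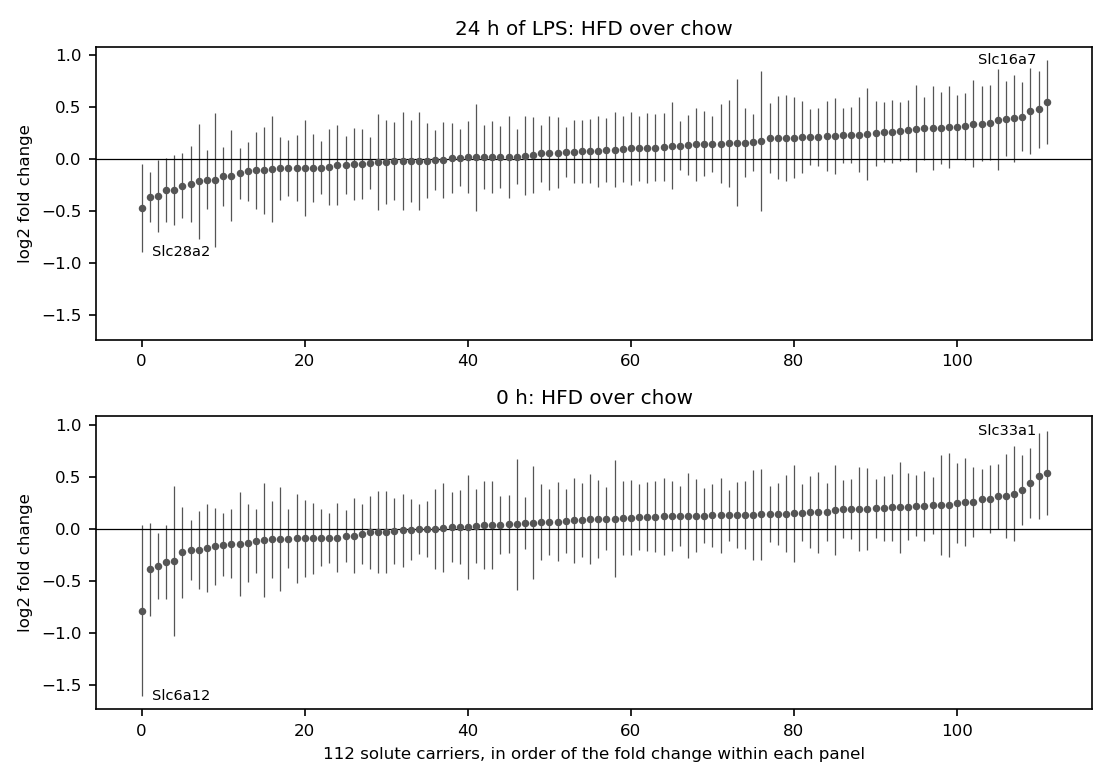
Log2 fold change of HFD over chow for the 112 members at 24 h of LPS (top) and at 0 h (bottom), ordered within each panel, with 95% intervals as vertical lines. The ends are Slc28a2 at -0.47 and Slc16a7 at 0.55 at 24 h, and Slc6a12 at -0.79 and Slc33a1 at 0.53 at 0 h, and no member passed the adjusted threshold.

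The LPS responses of the diets were compared with an interaction term, the log2 fold change in HFD minus that in chow. No member passed, and neither did any of the 12638 genes (background 0%). At an unadjusted p under 0.05 there were 2 members, beside 2.35% of all genes, and DESeq2 and limma-voom called 0 members. Slc4a7, a sodium-bicarbonate cotransporter, had 0.62 ± 0.29, Slc38a9 0.51 ± 0.24, Slc28a2 -0.62 ± 0.30 and Slc6a12 0.97 ± 0.50. These 4, among the 5 members with the smallest p, had an adjusted p of 0.9998. For Slc25a37 the difference was 0.08 ± 0.26 (95% interval -0.48 to 0.64), for Slc31a1 0.11 ± 0.19 (-0.28 to 0.51) and for Slc37a2 -0.02 ± 0.20 (-0.45 to 0.41), intervals that are narrow beside their LPS changes.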

How the data were processed

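RNA libraries were made with the NuGen Ovation Universal kit after Qiagen extraction, per the labels' protocols, and processed with CASAVA 1.8.2 and STAR 2.5.2b on mm10, per the submitters' processing notes. The counter and its strand setting were not given in the sources used here. The authors deposited raw counts per RefSeq transcript, and for each gene the row with the highest mean was kept (43 members have several). Genes kept by filterByExpr (12638) were tested with edgeR 4.0.16 in R 4.3.3 (TMM, glmQLFit with robust estimation, glmQLFTest) in 1 model of 4 group means over 12 libraries, with Benjamini-Hochberg adjustment, after a check on simulated data. The common biological coefficient of variation was 18%, and an SE is the log2 fold change over the square root of F. The 95% intervals take the degrees of freedom of the test. Counts and intervals cover counting error and the spread of 3 libraries a group. No 2 libraries of a group agreed within sampling noise by chi-square. Lengths are those of the counted transcripts, and positions are RefSeq's on GRCm38.p6, the assembly behind mm10.

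The members, substrate classes, marker lists and motifs were chosen with earlier results of these data known. The text names, for LPS, the 10 largest increases and decreases that passed without overlap, for diet and the interaction the 5 smallest p, and the 2 most abundant members of a class. The lack of overlap in the genes named for LPS was therefore set by their choice. Others were named after their values were seen, and the results of some members are not reported here. Alternatives were RLE and upper-quartile factors, 2 other filters, DESeq2 1.42.0, limma-voom (limma 3.58.1), summed transcripts, only the groups compared, the lane tag, a replicate block, each library left out, and, added after the data were seen, both chow replicate 1 libraries left out.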

Additional observations from a re-analysis of the deposited data

How the results depend on the processing

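The number of members that passed for LPS in HFD was 35 and stayed between 28 and 40 under every alternative run, 28 to 37 when 1 library was left out. In chow it was 44, 29 to 48 when 1 library was left out, 17 with the lane tag as a covariate and 24 without both chow replicate 1 libraries, an alternative chosen after seeing the data, and 36 to 48 under the others. The lane term rests on HFD 24 h replicate 1 alone, and the second setting leaves 2 libraries in each chow group. For diet at 24 h, diet at 0 h and the interaction, 0 members passed under every alternative run.

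No member that passed changed direction under any alternative. Beside the lane tag and the chow replicate 1 libraries, other scalings, filters and tools ended 9 calls in HFD and 11 in chow, all of which also ended when some single library was left out. In all 23 alternatives 9 increases (Slc3a2, Slc7a8, Slc16a1, Slc20a1, Slc25a22, Slc25a37, Slc28a2, Slc31a1 and Slc31a2) and 7 decreases (Slc6a6, Slc17a5, Slc29a1, Slc36a4, Slc37a2, Slc39a10 and Slc43a2) passed in chow, and 13 increases and 12 decreases in HFD. Label numbers are shared between times of a diet, and the labels do not say what a number marks. The 6 same-numbered pairs correlated in their deviations from the group means at 0.02 to 0.37, all above 0 but 3 of them under 0.1, so they were not treated as pairs, and whether they share an animal or a batch is not known. With the number as a replicate block, 40 members passed in HFD and 46 in chow, and 0 for diet and the interaction. The best match of a library was its own number in some but not all cases.

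With 3 libraries a group, small differences of a member without a call were not detectable. HFD 0 h replicate 3 holds the fewest counts, and 3 counts equal 1.27 CPM there and 0.145 CPM in the deepest library.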

Other observations

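Of a list of 11 carriers and partners outside the Slc symbols 10 were tested, and of these 4 fell in HFD and 5 in chow and none rose, beside 11.9% and 12.9% of all genes that were lower. Ctns, the lysosomal cystine exporter, fell with log2 fold changes of -0.45 ± 0.14 in HFD (adjusted p = 0.0277) and -0.71 ± 0.14 in chow (adjusted p = 0.00106), and Mfsd12, which carries cysteine into lysosomes and melanosomes, with -1.05 ± 0.21 (0.00133) and -0.96 ± 0.21 (0.00252). Mfsd12 held 256, 214 and 175 CPM in HFD 24 h, 430, 421 and 481 in HFD 0 h, 245, 254 and 123 in chow 24 h and 417, 390 and 398 in chow 0 h, with no overlap within a diet. Spns1, which exports lysophospholipids from lysosomes, fell with -0.48 ± 0.15 in HFD and -0.51 ± 0.15 in chow (adjusted p = 0.0283 and 0.0177), and Flvcr1, a carrier of choline and haem at the cell surface, with -0.37 ± 0.13 and -0.43 ± 0.13 (0.0414 and 0.0184). The phosphate exporter Xpr1 fell in chow with -0.61 ± 0.17 (adjusted p = 0.0113) and had -0.32 ± 0.17 in HFD (0.19), the opposite direction to the phosphate importer Slc20a1. The mitochondrial pyruvate carrier subunits Mpc1 and Mpc2 had -0.53 ± 0.43 and 0.21 ± 0.17 in HFD and -1.10 ± 0.44 and 0.34 ± 0.16 in chow, and neither passed, nor did Mfsd1, a lysosomal carrier, with 0.31 ± 0.14 in HFD and 0.17 ± 0.14 in chow.

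Of the Slc genes under the count threshold, 82 could be tested. In HFD 10 rose and 9 fell, and in chow 8 rose and 15 fell, 23.2% and 28.05% beside the 24.6% and 26.5% of all genes.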
